A study of Mus musculus with 32 samples.

Results

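The collagen, laminin and lysyl oxidase genes are the structural genes of the extracellular matrix and the enzymes that cross-link it. Members were chosen by gene symbol alone, as every gene named *Col* with a chain number, every laminin chain gene (*Lama*, *Lamb*, *Lamc*), *Lox* and *Loxl1* to *Loxl4*, which gave 60 of the 53558 genes in the deposited tables. They comprise 44 collagen genes, 11 laminin genes and 5 lysyl oxidase genes. The collagens were divided by the structures they build into 8 basement membrane collagens, 11 fibrillar collagens, 6 chains of collagen VI (which forms beaded filaments), 9 fibril-associated (FACIT) collagens, 4 transmembrane collagens and 6 anchoring or network-forming collagens.

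RNA was sequenced from neoplastic cells sorted from mouse lung adenocarcinomas to ask how tumor cells respond to loss and restoration of *Lkb1* (gene symbol *Stk11*). Tumors were started by lentiviral Cre, which switched on an oncogenic driver allele and the *Rosa26*LSL-tdTomato reporter in all 32 libraries. *KT* tumors carried these 2 alleles only, had wild-type *Lkb1* and received no treatment (n = 4). Non-restored tumors were also *Lkb1*XTR/XTR, a gene trap that Cre turns on to silence *Lkb1* (n = 10), and comprised 4 libraries without FLPo-ERT2 that received tamoxifen and 6 libraries with FLPo-ERT2 that received corn oil vehicle. Restored tumors were *Lkb1*XTR/XTR with FLPo-ERT2 and received tamoxifen, in 4 mg doses over 2 weeks, which removes the trap (n = 7). The *Trp53*-deficient groups carried *Trp53*flox/flox in addition and were non-restored (7 libraries from 4 animals, 2 with tamoxifen and 5 with vehicle) or restored (n = 4). *Trp53* wild-type tumors were harvested 24 to 27 weeks after initiation and *Trp53*-deficient tumors after 16 to 19 weeks, so that *Trp53* status and tumor age cannot be told apart. For this sequencing the study gave *KT* mice a smaller dose of virus than *Lkb1*XTR/XTR mice. Between *KT* tumors and non-restored or restored tumors, *Lkb1* status, virus dose and treatment therefore cannot be told apart. All 11 restored libraries came from females, whereas the other groups held both sexes. Tumors were digested with collagenase IV, dispase and trypsin, and cells bearing blood, endothelial or erythroid surface markers were excluded before RNA was extracted. The study counts fewer *Lkb1*XTR/XTR mice with wild-type *Trp53* than there are such libraries. Each of these libraries nevertheless has its own title prefix, which was used to tell the *Trp53*-deficient animals apart. Whether some of the non-restored and restored libraries share an animal is therefore not settled. If some do, p-values over these libraries are too small.

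Epithelia rest on basement membranes, thin sheets in which laminins, trimers of an α, a β and a γ chain, and a network of collagen IV are tied together by nidogen and by the proteoglycans perlecan and agrin. Fibrillar collagens I, III and V form the cables of connective tissue and are made mainly by fibroblasts, and lysyl oxidases cross-link collagens and elastin outside the cell. In the alveolus the collagen IV of the epithelial basement membrane contains the α3, α4 and α5 chains, and the α3 and β3 laminin chains belong to a laminin that anchors epithelial cells.

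Libraries held 1302482 to 5943951 expected counts, with *KT* libraries the shallowest on average, and a count of 0 allowed up to 0.505 CPM (counts scaled to a common library total) in the deepest library and 2.3 in the shallowest. *Stk11* checked the labels, at 16 to 29.5 TPM (transcript abundance scaled for gene length and for library total) in *KT*, 0 to 1.45 in non-restored and 12.7 to 20.8 in restored libraries, and at 0 to 0.725 and 8.36 to 14.8 in *Trp53*-deficient non-restored and restored animals. The 8 epithelial markers were all detected in every group. Their summed level was 8654 TPM in non-restored library 8 and 34059.7 TPM in non-restored library 4, against 56747 to 87714 TPM in the other 8 non-restored libraries, and it was 8089.8 to 38992 TPM in the 4 *Trp53*-deficient non-restored animals. The summed level of 10 immune markers was 359 and 231 TPM in restored libraries 1 and 6 and 171 TPM in non-restored library 2, against at most 50.6 TPM in every other unit. Counts of members called are given with and without these libraries. Non-restored libraries 4 and 8 also held the highest summed level of 6 mesothelial markers in their group, 182 and 155 TPM, against at most 85.9 TPM in the other 8. The sum was 0.61 to 5.3 TPM in *KT*, 0 to 44.8 in restored and 51.6 to 197 in *Trp53*-deficient non-restored units. In libraries 4 and 8 *Msln* gave nearly all of it, and the other 5 markers summed to 0 and 0.25 TPM. The same held in the *Trp53*-deficient non-restored libraries, with *Msln* at 9.91 to 219 TPM and the other 5 markers together at 0 to 2.78 TPM.

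The 6 collagen IV genes lie in 3 head-to-head pairs, in which the genes of a pair are read in opposite directions from neighbouring start sites. By GENCODE coordinates (GRCm38) the annotated 5′ ends of *Col4a1* and *Col4a2* (chromosome 8) overlapped by 22 bases, those of *Col4a4* and *Col4a3* (chromosome 1) were separated by 71 bases and those of *Col4a6* and *Col4a5* (chromosome X) by 1308 bases. The sequence between *Col4a4* and *Col4a3* (chr1:82586850-82586920), which is the whole stretch the pair shares, and the 150 bases before the starts of *Col4a5* (chr X, 141475235 to 141475384, plus strand) and *Col4a6* (chr X, 141474077 to 141474226, minus strand) are shown because *Col4a5* was the member called between *Trp53* backgrounds and the other genes of the 2 pairs are described with it. The 124 bases before *Lamb2* (chromosome 9, 108479612 to 108479735, plus strand) and the 150 bases before *Col23a1* (chromosome 11, 51289770 to 51289919, plus strand) are shown because these genes passed the test in opposite directions. All are RefSeq sequence (GRCm38.p6), 5′ to 3′ in the gene's direction, with GC boxes (GGGCGG on either strand) in capitals.
Col4a4: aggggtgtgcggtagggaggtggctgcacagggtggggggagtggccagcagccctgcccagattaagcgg
Col4a5: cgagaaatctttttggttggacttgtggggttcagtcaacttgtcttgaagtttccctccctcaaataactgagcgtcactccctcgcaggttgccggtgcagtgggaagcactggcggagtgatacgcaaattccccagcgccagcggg
Col4a6: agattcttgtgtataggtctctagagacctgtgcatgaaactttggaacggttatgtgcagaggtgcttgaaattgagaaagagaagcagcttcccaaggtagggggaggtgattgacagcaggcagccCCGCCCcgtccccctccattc
Lamb2: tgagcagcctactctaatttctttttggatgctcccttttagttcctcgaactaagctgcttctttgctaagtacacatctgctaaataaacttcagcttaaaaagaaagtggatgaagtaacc
Col23a1: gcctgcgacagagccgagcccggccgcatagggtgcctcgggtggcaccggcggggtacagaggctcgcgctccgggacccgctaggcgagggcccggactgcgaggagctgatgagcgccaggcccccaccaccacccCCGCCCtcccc
A GC box stood before *Col4a6* and before *Col23a1*, whose sequence was 76.7% G and C, and none stood in the other 3 stretches, of which that of *Lamb2* was 37.9% G and C. Promoter windows of 300 bases were available for 41 of the 60 members (45 windows). A GC box was found in 27 of these windows (60%), against 35.7% of all 32851 windows. The CCAAT box was found in 14 (31.1% against 37.4%), the E-box CANNTG in 26 (57.8% against 72.3%), and the C/EBP core TTNNGCAA in 3 (6.67% against 10.8%). All motifs were read on both strands, and a match describes the sequence only.

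Tumor cells expressed basement membrane genes far above fibrillar collagens. Of the 60 members, 15 had a mean of at least 10 TPM over the 32 libraries, 18 lay between 1 and 10 TPM, 23 lay below 1 TPM with some count, and 4 (*Col26a1*, *Col19a1*, *Col9a1* and *Col6a4*) had no count in any library. Among the highest were *Lamb3*, at 157 TPM, *Col4a1* (70.4), *Lamc1* (63.1), *Lama5* (51.2), *Col4a2* (29.8), *Col4a3* (27.4), *Lama3* (26.4), *Col3a1* (22.6) and *Col18a1* (16.3). Of these, all but *Col3a1* are components of basement membranes.

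**Figure D1:**
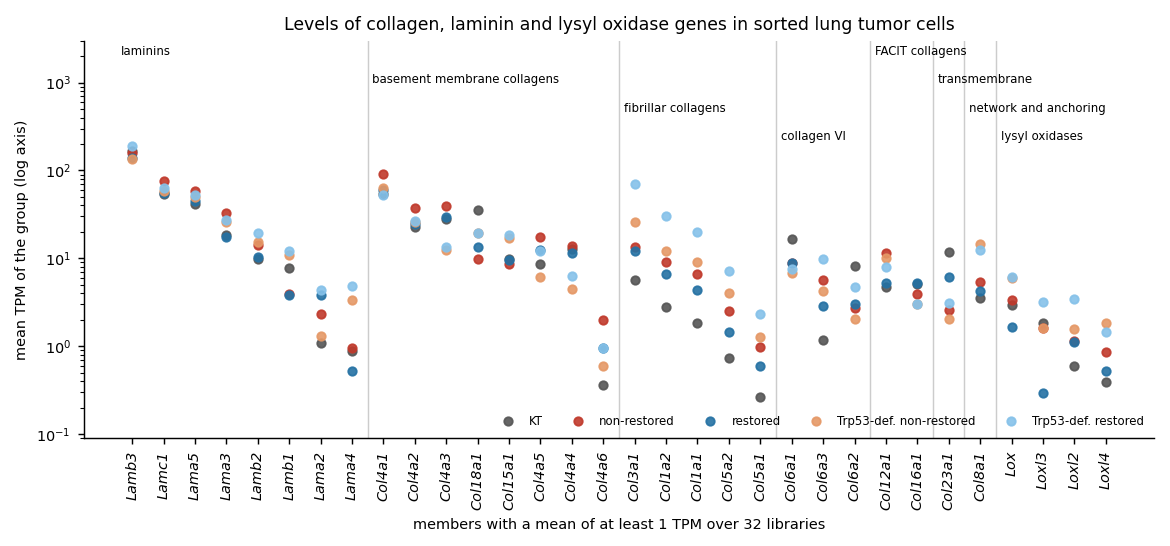
Mean level of members with at least 1 TPM over 32 libraries (1 member is not shown), on a log axis of TPM, grouped by class, with 1 point per group (*KT*, non-restored, restored and the 2 *Trp53*-deficient groups). Laminins and basement membrane collagens hold the highest levels, with *Lamb3* at 157 TPM, whereas *Col3a1*, the highest fibrillar collagen, averages 22.6 TPM.

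Summed over the 19 basement membrane collagens and laminins, the level was 628 ± 92.9 TPM (SD) in *KT*, 796 ± 109 in non-restored and 586 ± 69.4 in restored tumors, and 741 ± 95.3 and 756 ± 77.8 in *Trp53*-deficient non-restored and restored animals. The 11 fibrillar collagens summed to 12.2 ± 6.86, 33.5 ± 25.2 and 27.2 ± 15 TPM in the 3 *Trp53* wild-type groups, and to 54.6 ± 47.3 and 132 ± 208 in the *Trp53*-deficient groups. The SD of the fibrillar sum was close to its mean in *Trp53*-deficient non-restored animals and above it in the restored ones.

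Fibrillar collagen RNA ranged widely, and so did RNA of fibroblast markers. The summed TPM of 14 fibroblast markers, among them *Pdgfra*, *Dcn* and *Lum*, ran from 11.4 to 42.2 in *KT*, 2.56 to 177 in non-restored and 15.9 to 135 in restored libraries, and reached 445 in restored *Trp53*-deficient library 1. *Dcn* alone gave 114 of the 177 TPM, in non-restored library 2, and 198 of the 445 TPM. Not all markers followed the sum, as *Scara5* was 1.38 to 3.02 TPM in *KT* and 0 to 2.83 in non-restored libraries. Between 10 and 12 of the 14 were detected in at least as many libraries of each group as lacked them. The fibrillar sum was 441 TPM in restored *Trp53*-deficient library 1 and 0.6 TPM in restored *Trp53*-deficient library 4, where the fibroblast markers summed to 2.59 TPM. In library 4 *Lum*, *Mfap4*, *Dpt*, *Tcf21*, *Inmt*, *Fbln1*, *Twist2* and *Thy1* were at 0. *Pdgfra*, *Dcn*, *Mfap5*, *Scara5*, *Pi16* and *Postn* were at 0.04 to 0.58 TPM there. *Twist2* was at 0 in every library, and *Tcf21* in most. Of the 5 units with the highest fibrillar sum, 3 were among the 5 with the highest fibroblast sum, and of the 5 lowest, 3 were among the 5 lowest. The same counts, 3 and 3, were found against the summed level of 10 mural cell markers. For the sum of the 19 basement membrane collagens and laminins, 3 of the 5 highest and 0 of the 5 lowest units were shared with the fibroblast sum. The part of other cells in the fibrillar values was not tested, and in bulk RNA fewer cells of a type and less RNA per cell cannot be told apart. The basement membrane sum was 640.1 TPM in non-restored library 8 and 718 TPM in restored *Trp53*-deficient library 4, where fibroblast markers stood at 2.56 and 2.59 TPM.

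**Figure D2:**
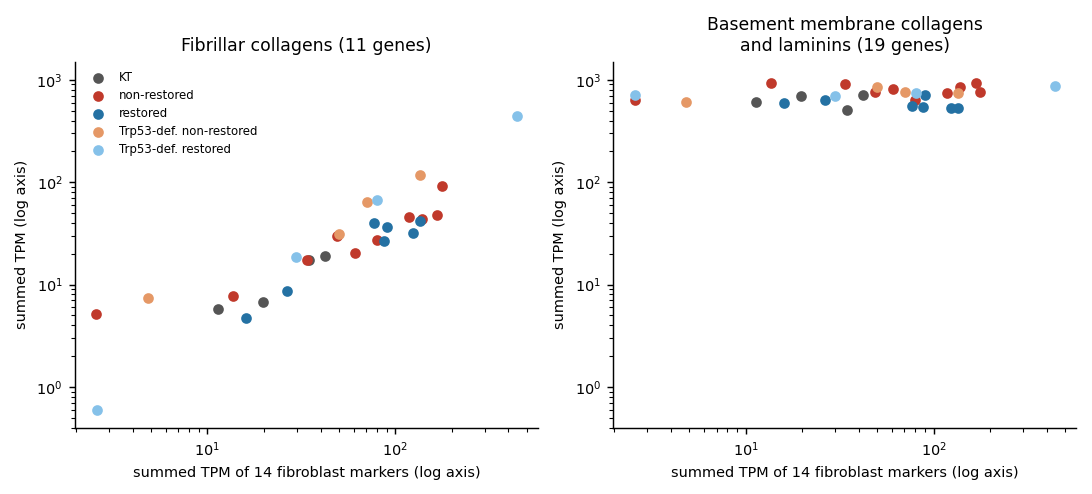
Summed TPM of the 11 fibrillar collagens (left) and of the 19 basement membrane collagens and laminins (right) against the summed TPM of 14 fibroblast markers, both axes logarithmic, with 1 point per library or, for *Trp53*-deficient non-restored tumors, per animal. The fibrillar sum spans 0.6 to 441 TPM and rises with the fibroblast sum, whereas the basement membrane sum stays between 506 and 935 TPM.

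To find members that responded to *Lkb1*, counts were compared between groups with edgeR's quasi-likelihood test, adjusted over all genes tested. Of the 60 members, 33 passed the filter on low counts among *Trp53* wild-type libraries (17 of 19 basement membrane collagens and laminins, 5 of 11 fibrillar collagens, 8 of 25 other collagens and 3 of 5 lysyl oxidases). Between restored and non-restored tumors 1 of the 33 passed an adjusted p of 0.05, *Lamc1*, against 1.86% of the 12656 genes tested (0.893% lower). At an unadjusted p under 0.05 there were 9 members (27.3%), 8 of them lower after restoration, against 15.1% of all genes. The median log2 fold change of the 33 was -0.32, against -0.01 over all genes, and 23 of them were negative, against 6552 of the 12656 genes. Between non-restored and *KT* tumors 2 of 33 passed, *Lamb2* higher and *Col23a1* lower, against 5.88% of genes (2.39% higher and 3.49% lower). At an unadjusted p under 0.05 there were 15 (45.5%), 8 higher and 7 lower, against 20.8%, and the median was 0.54, against 0.03 over all genes. Between restored and *KT* tumors *Loxl3* passed, against 0.498% of genes (0.356% lower), and 8 members (24.2%) had an unadjusted p under 0.05, against 10.5%. These 3 comparisons share groups of libraries. DESeq2 called 2, 6 and 1 members in them, against 3.7%, 8.56% and 1.34% of genes with an adjusted p.

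**Figure D3:**
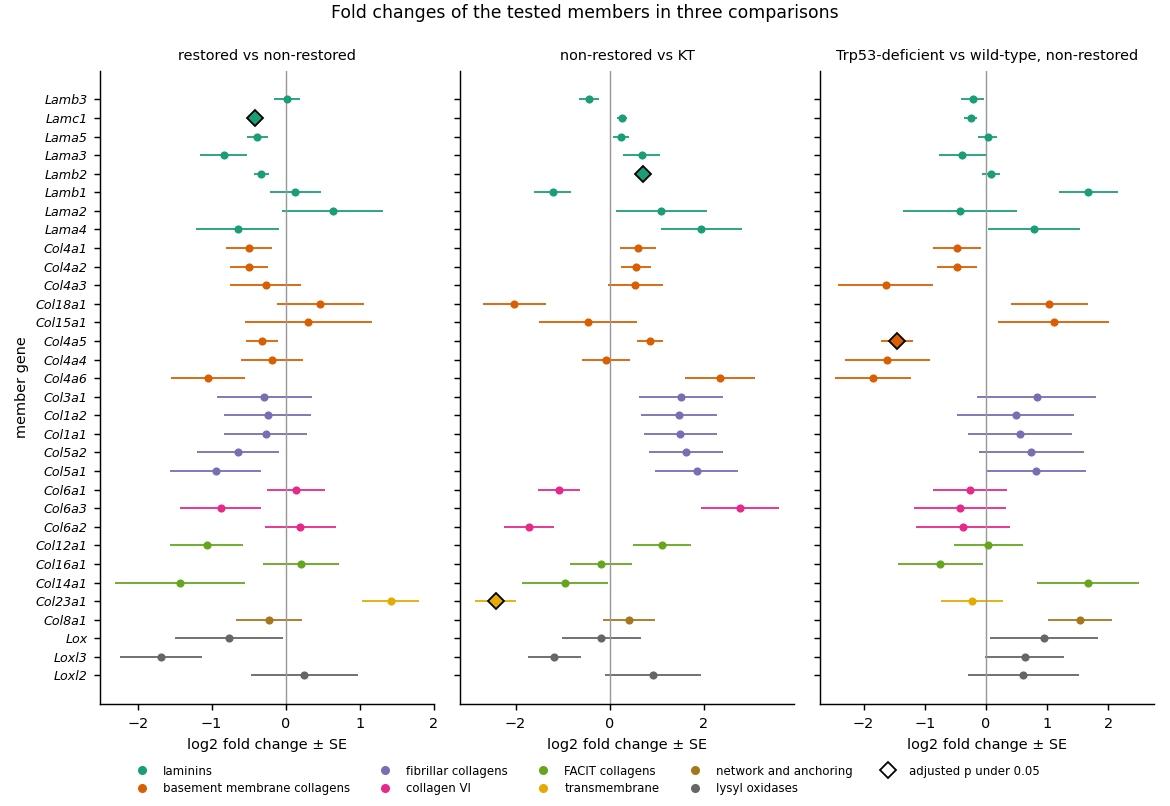
Log2 fold change with its standard error for the tested members (1 is not shown), by class, in restored against non-restored tumors, non-restored against *KT* tumors, and *Trp53*-deficient against wild-type non-restored tumors. Diamonds mark an adjusted p under 0.05, which *Lamc1* (-0.41), *Lamb2* (0.71), *Col23a1* (-2.42) and *Col4a5* (-1.45) reached.

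Leaving out non-restored libraries 4 and 8, a choice made after seeing their low epithelial sums, raised these counts. These libraries were also the 2 lowest of their group for *Col4a1* (58.1 and 17 TPM), *Col4a2* (23.6 and 8.92) and *Col4a5* (10.2 and 6.28). Leaving them out therefore raised the non-restored levels of these genes. The epithelial markers include the surfactant genes *Sftpc* and *Sftpb*, and fewer epithelial cells and less RNA per cell cannot be told apart. Summed fibroblast, mural, endothelial and immune markers were 13.7, 12.5, 34.1 and 35.1 TPM in library 4. In library 8 they were 2.56, 4.71, 1.82 and 12.4 TPM, of which the fibroblast, mural and endothelial sums were the lowest of the group. Libraries 4 and 8 also held the highest mesothelial sums of their group, nearly all from *Msln*. The part of any of these sums in the counts was not tested. Restored against non-restored tumors then gave 4 members (*Col4a1*, *Col4a2*, *Lama3* and *Lamc1*, all lower) against 2.86% of genes, and non-restored against *KT* tumors gave 9 (*Col4a1*, *Col4a2*, *Col4a5*, *Col4a6*, *Lama3*, *Lamb2* and *Col6a3* higher, *Col18a1* and *Col23a1* lower) against 8.59%. Leaving out non-restored library 2 and restored libraries 1 and 6, those with high immune sums, left 0 members in the first comparison by edgeR (0.715% of genes), 2 in the second (5.17%) and 0 in restored against *KT* tumors (0.257%).

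Among laminins, restored tumors were lower in *Lamc1*, the γ1 chain found in most laminins (chromosome 1, 153218922 to 153332786, minus strand, overlapping *Gm38009* and *Gm8818*). In TPM it was 60.2, 44.7, 50.6 and 63.1 in the *KT* libraries, 59.5 to 94 (median 70.3) in non-restored and 46.6 to 62.6 (median 57.7) in restored libraries. In CPM after scaling of the library totals, it was 168 to 237 in non-restored and 129.7 to 159 in restored libraries. The groups overlapped per length through non-restored library 8, the lowest of its group, and did not overlap in CPM. The restored level was 0.753 of the non-restored level (log2 fold change -0.41, SE 0.0876, edgeR adjusted p 0.0148), and the call held without any single library, with adjusted p up to 0.0455. It was lost with RSEM's effective lengths as offsets, where the change was -0.34 (SE 0.118, adjusted p 0.175) by edgeR. It was also lost without non-restored library 2 and restored libraries 1 and 6, at -0.43 (SE 0.104, adjusted p 0.0643), and among females alone, at -0.33 (adjusted p 0.0862). Against the tamoxifen arm alone the call was lost at -0.40 (edgeR adjusted p 0.0927). A replicate block (-0.37, edgeR adjusted p 0.0677) and no filter on low counts (-0.41, 0.0574) lost it too. Non-restored libraries of the tamoxifen and vehicle arms averaged 71.2 ± 12.2 (n = 4) and 77.7 ± 13.4 TPM (n = 6). Against *KT* tumors the log2 difference in *Lamc1* was 0.26 (SE 0.106, adjusted p 0.158) without restoration and -0.15 (SE 0.111, adjusted p 0.684) with it by edgeR.

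*Lamb2*, the β2 chain (chromosome 9, 108479736 to 108490530, plus strand), passed the test between non-restored and *KT* tumors. It was 28.5 to 37.4 CPM in *KT*, 44.8 to 60.6 in non-restored and 30.9 to 50.4 in restored libraries, so that all 10 non-restored libraries lay above all 4 *KT* libraries and the restored range overlapped both. The log2 fold change of non-restored against *KT* tumors was 0.71 (SE 0.133, edgeR adjusted p 0.00242). Per length the groups overlapped, at 6.78, 11, 6.38 and 15.2 TPM in the *KT* libraries and 12.1 to 16.2 (median 14.4) in non-restored libraries. The effective length of *Lamb2* (the length RSEM estimated from the transcripts in use) ranged from 3103 to 5448 bases among *KT* libraries and from 4531 to 5444 among non-restored libraries. With these lengths as offsets the difference was 0.38 (SE 0.192, adjusted p 0.288) by edgeR, and among females only it was 0.75 (adjusted p 0.0737), so that neither kept the call. Restored tumors had 7.1 to 15.7 (median 10.2) TPM, and the log2 fold change on restoration was -0.33 (SE 0.105, adjusted p 0.119) by edgeR.

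The epithelial laminin chains *Lama3* and *Lamb3* did not pass in any comparison of all libraries. *Lama3* was 13.9, 18.8, 21 and 19.4 TPM in *KT*, 5.4 to 56.3 (median 33.3) in non-restored and 10.3 to 26.3 (median 16.8) in restored libraries. Its non-restored range enclosed both others. Its log2 fold change on restoration of -0.84 (SE 0.323, adjusted p 0.206) by edgeR became -1.06 (SE 0.209, adjusted p 0.0070) without non-restored libraries 4 and 8, which held the 2 lowest *Lama3* values of their group. *Lamb3* was 104 to 223 TPM in *KT*, 73.1 to 228 in non-restored and 95.3 to 212 in restored libraries, with a log2 fold change on restoration of 0.02 (SE 0.179, adjusted p 0.986) by edgeR.

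Of the remaining laminins, *Lama5*, the α5 chain of lung basement membranes, had 31.2 to 55.9 TPM in *KT*, 33.8 to 80.2 in non-restored and 23.4 to 78.5 in restored libraries, with a log2 fold change on restoration of -0.38 (SE 0.143, adjusted p 0.193) by edgeR. *Lamb1*, the β1 chain, was 4.48 to 15.3 TPM in *KT* and 0.88 to 9.74 in non-restored libraries (log2 fold change -1.21, SE 0.40, adjusted p 0.0776 by edgeR). *Lama2* and *Lama4*, chains of muscle and vessel basement membranes, averaged 2.57 and 1.77 TPM over the 32 libraries. *Lama1* and *Lamc3* did not pass the filter in wild-type libraries.

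**Figure D4:**
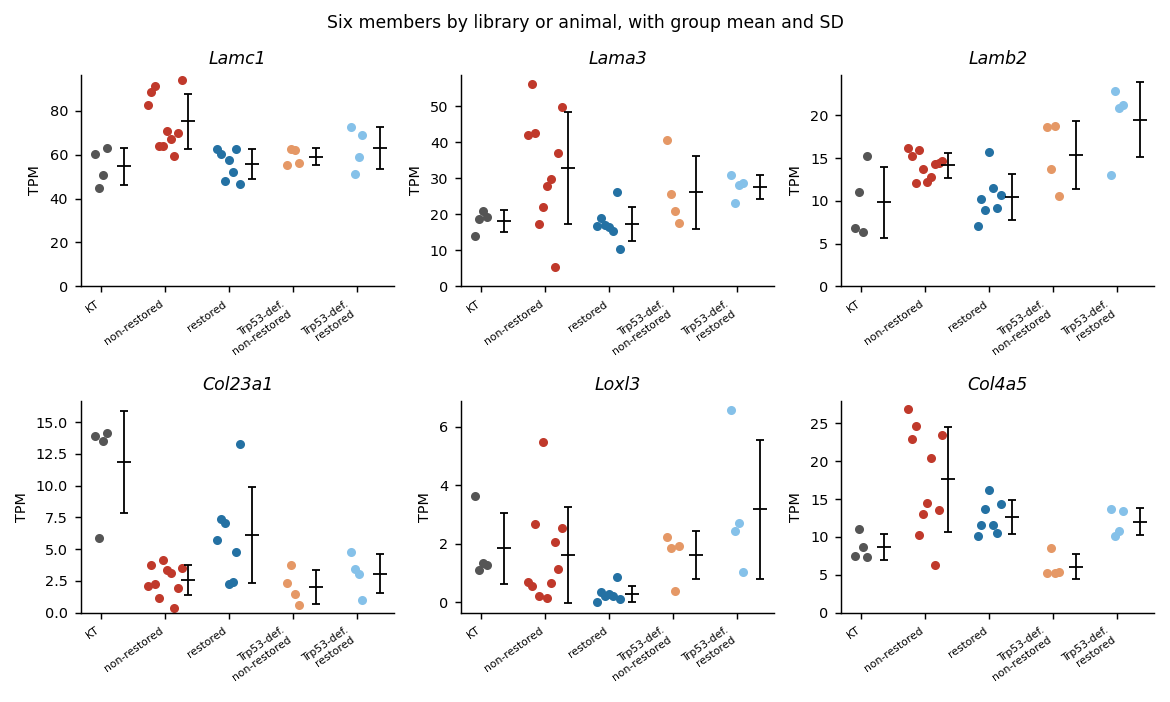
TPM of *Lamc1*, *Lama3*, *Lamb2*, *Col23a1*, *Loxl3* and *Col4a5* in every library or animal of the 5 groups, with the group mean and SD. *Lamc1* is highest in non-restored libraries (75.1 ± 12.7 TPM), *Col23a1* is highest in *KT* (11.9 ± 4.03), and *Col4a5* is lowest in *Trp53*-deficient non-restored animals (6.08 ± 1.67).

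Among the collagen IV genes, the mean ratio of *Col4a1* to *Col4a2* varied little between *Trp53* wild-type groups. It was 2.44 ± 0.459 in *KT*, 2.41 ± 0.279 in non-restored and 2.38 ± 0.495 in restored libraries. In *Trp53*-deficient animals it was 2.51 ± 0.325 without and 1.92 ± 0.377 with restoration. The ratio also carries the effective lengths, which among non-restored libraries were 3473 to 5407 bases for *Col4a1* and 6167 to 6265 for *Col4a2*. *Col4a1* itself ranged over 17 to 145 TPM among non-restored libraries. Non-restored library 8 held the lowest *Col4a1* of all units and non-restored library 3 the highest. The log2 fold change on restoration was -0.49 (SE 0.31, adjusted p 0.485) for *Col4a1* and -0.50 (SE 0.259, adjusted p 0.383) for *Col4a2* by edgeR, and without non-restored libraries 4 and 8 it was -0.71 (SE 0.183, adjusted p 0.0394) and -0.68 (SE 0.179, adjusted p 0.0432). Between non-restored and *KT* tumors the log2 fold changes were 0.61 (SE 0.381, adjusted p 0.385) and 0.55 (SE 0.318, adjusted p 0.335) by edgeR, and 0.83 (SE 0.224, adjusted p 0.0241) and 0.75 (SE 0.219, adjusted p 0.0369) without those libraries.

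*Col4a3* and *Col4a4*, which with *Col4a5* build the alveolar network, had a mean ratio of 2.17 in *KT*, 3.05 in non-restored and 2.75 in restored libraries. *Col4a3* was 29.4, 37.5, 22.1 and 22.5 TPM in *KT*, 1.91 to 67.6 (median 41.2) in non-restored and 16.2 to 45.7 (median 29.8) in restored libraries, with its lowest value again in non-restored library 8. *Col4a4* was 13.3, 12.7, 11.9 and 13.6 TPM in *KT*, 0.67 to 22 (median 16.5) in non-restored and 4.7 to 17.2 (median 12.3) in restored libraries. The groups overlapped for both genes, and the log2 fold change on restoration was -0.27 (SE 0.475, adjusted p 0.852) for *Col4a3* and -0.18 (SE 0.423, adjusted p 0.894) for *Col4a4* by edgeR.

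*Col4a5* (chromosome X, 141475385 to 141689234, plus strand, overlapping *Gm15268* and *Gm15282*) was 7.55, 11.1, 8.67 and 7.3 TPM in *KT*, 6.28 to 26.9 (median 17.4) in non-restored and 10.2 to 16.3 (median 11.6) in restored libraries. Its partner *Col4a6* was scarce, at 0 to 0.72 TPM in *KT*, 0.13 to 5.39 in non-restored and 0.43 to 1.95 in restored libraries. Both were highest in non-restored library 1. The log2 fold change of non-restored against *KT* tumors was 0.86 (SE 0.28, adjusted p 0.0742) for *Col4a5* and 2.35 (SE 0.74, adjusted p 0.0635) for *Col4a6* by edgeR, and 1.04 (SE 0.212, adjusted p 0.00364) and 2.59 (SE 0.62, adjusted p 0.0113) without non-restored libraries 4 and 8.

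**Figure D5:**
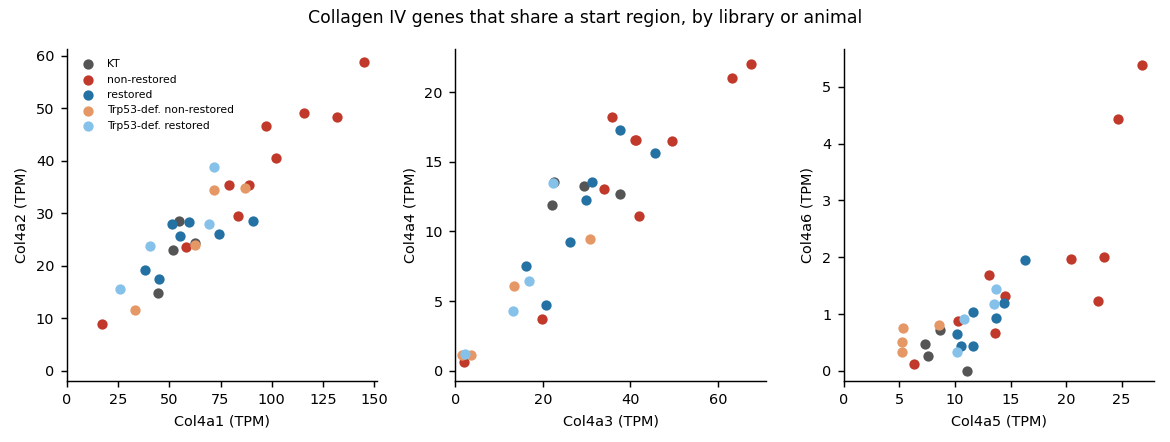
TPM of the 3 pairs of collagen IV genes that start beside each other, with 1 point per library or animal. Points of *Col4a1* with *Col4a2* and of *Col4a3* with *Col4a4* rise together, and non-restored libraries cover the whole range of *Col4a1*, 17 to 145 TPM.

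Of the other basement membrane collagens, *Col18a1*, the source of endostatin, was 62.1, 8.5, 43 and 30.1 TPM in *KT*, 2.75 to 30.4 (median 6.67) in non-restored and 4.18 to 50.7 (median 8.21) in restored libraries. *KT* libraries 2 and 4 lay within the non-restored range and libraries 1 and 3 above it. The difference of non-restored from *KT* tumors was -2.03 (SE 0.667, adjusted p 0.0782) by edgeR, and -2.73 (SE 0.648, adjusted p 0.0139) without non-restored libraries 4 and 8, of which library 8 held the highest non-restored value. *Col15a1*, of vessel and epithelial basement membranes, ran over 0.97 to 42 TPM in non-restored and 0.090 to 29.5 in restored libraries.

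*Col23a1*, a transmembrane collagen (chromosome 11, 51289920 to 51583918, plus strand), had less RNA in the non-restored group than in the *KT* group. These groups also differed in virus dose and treatment, whose part was not tested. *Col23a1* was 13.9, 5.84, 13.5 and 14.2 TPM in *KT*, 0.37 to 4.12 (median 2.71) in non-restored and 2.23 to 13.3 (median 5.74) in restored libraries. No non-restored library reached any *KT* library, and the restored range overlapped both. The log2 fold change of non-restored against *KT* tumors was -2.42 (SE 0.436, edgeR adjusted p 0.00198). The call held without any single library and was lost among females alone, at -2.27 (adjusted p 0.122). On restoration the log2 fold change was 1.42 (SE 0.387, adjusted p 0.0635) by edgeR, and DESeq2 called it (adjusted p 0.0126). In restored against *KT* tumors it was -0.997 (SE 0.468, adjusted p 0.464) by edgeR. *Col13a1*, *Col17a1* and *Col25a1*, the other transmembrane collagens, did not pass the filter.

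The 3 tested chains of collagen VI, which assemble into a shared filament, differed in sign between non-restored and *KT* tumors. *Col6a1* was 13.5 to 24 TPM in *KT* and 1.48 to 13.7 in non-restored libraries (log2 fold change -1.08, SE 0.45, adjusted p 0.169 by edgeR). *Col6a2* was 4.22 to 14 and 0.46 to 5.66 TPM (-1.72, SE 0.535, adjusted p 0.0609), whereas *Col6a3* was 0.25 to 2.82 and 0.73 to 17.1 TPM (2.78, SE 0.831, adjusted p 0.0518). None passed in edgeR, and all 3 had an unadjusted p under 0.05, against 20.8% of all genes. DESeq2 called *Col6a2* and *Col6a3* (adjusted p 0.0289 and 0.00174), against 8.56% of genes with an adjusted p.

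Of the fibrillar collagens 0 of 5 passed between *Trp53* wild-type groups in edgeR or DESeq2. *Col1a1*, a chain of collagen I, was 1.46, 3.13, 0.35 and 2.43 TPM in *KT*, 0.61 to 16.3 (median 6.21) in non-restored and 0.58 to 7.43 (median 5.34) in restored libraries. *Col1a2*, its other chain, was 0.64 to 4.45, 0.22 to 23 and 1.56 to 10.7 TPM, and *Col3a1*, of collagen III, was 1.41 to 10.3, 1.0 to 43.9 and 0.61 to 20.9 TPM in the same groups. All 3 were highest in non-restored library 2 among wild-type libraries, which also held the highest fibroblast sum. The 5 tested genes had positive log2 fold changes in non-restored against *KT* tumors (median 1.51, with 2 at an unadjusted p under 0.05), and the fibroblast sum had a median of 70.5 TPM in non-restored against 27.2 TPM in *KT* libraries. On restoration their median log2 fold change was -0.29, with 0 of 5 at an unadjusted p under 0.05 in edgeR.

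Among FACIT and network collagens, *Col12a1*, which binds to collagen I fibrils, was 1.4 to 9.83 TPM in *KT*, 0.57 to 20.2 in non-restored and 1.83 to 9.0 in restored libraries, with a log2 fold change on restoration of -1.07 (SE 0.491, adjusted p 0.307) by edgeR. *Col8a1*, of the collagen VIII network, was 1.01 to 7.15, 1.0 to 12.9 and 2.36 to 6.21 TPM (-0.23, SE 0.444, adjusted p 0.872).

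Lysyl oxidase RNA was low, with summed levels of 5.91 ± 2.34 TPM in *KT*, 7.47 ± 5.25 in non-restored and 4.0 ± 2.77 in restored libraries. *Loxl3* (chromosome 6, 83034173 to 83052562, plus strand, overlapping *Htra2* and *Mir7040*) was 3.64, 1.11, 1.34 and 1.29 TPM in *KT*, 0.15 to 5.47 (median 0.905) in non-restored and 0 to 0.87 (median 0.23) in restored libraries. No restored library reached a *KT* library, whereas the non-restored range overlapped both. These levels rest on 3 to 10 counts in each *KT* library, 1 to 10 in each non-restored and 0 to 4 in each restored library, and without strand reads of the overlapping genes cannot be told apart from them. Restored against *KT* tumors differed by -2.86 (SE 0.645, edgeR adjusted p 0.0466). That call was lost without any one of the 4 *KT* libraries and without any restored library other than library 6 (adjusted p 0.0551 to 0.26). *Lox*, the first described of these enzymes, was 0.42 to 7.42 TPM in *KT*, 0.080 to 10 in non-restored and 0.28 to 4.02 in restored libraries (restored against non-restored -0.77, SE 0.725, adjusted p 0.682 by edgeR), and *Loxl2* was 0.10 to 1.05, 0 to 3.25 and 0 to 2.19 TPM (0.25, SE 0.722, adjusted p 0.919). *Loxl1* and *Loxl4*, at 0 to 1.71 and 0 to 2.94 TPM in non-restored libraries, did not pass the filter in wild-type tumors.

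The partners of these proteins were taken from fixed lists. Of 14 genes that tie or modify basement membranes, 11 were tested, and on restoration 2 of them passed, both lower, against 1.86% of all genes. *Hspg2* (perlecan) was 2.14 to 8.22 TPM in restored and 5.53 to 32.2 in non-restored libraries (log2 fold change -1.47, SE 0.253, adjusted p 0.00279 by edgeR), and *Agrn* (agrin) was 39.8 to 82 and 51.5 to 111 TPM (-0.53, SE 0.124, adjusted p 0.0259). The ranges of both genes overlapped. The *Hspg2* call held without any 1 of the 17 libraries and under the other 13 alternatives tried. The *Agrn* call was lost without any one of 8 of the 17 libraries (restored libraries 1, 2, 3, 6 and 7 and non-restored libraries 4, 5 and 10, edgeR adjusted p 0.0501 to 0.0757), among females alone (0.0879), against the vehicle arm alone (0.0603) or the tamoxifen arm alone (0.216), and without non-restored library 2 and restored libraries 1 and 6 (0.206). Comparing non-restored with *KT* tumors, 3 were higher, *Agrn* (0.71, SE 0.155, adjusted p 0.00796), *Hspg2* (1.40, SE 0.319, adjusted p 0.0111) and *Nid1*, a nidogen (1.56, SE 0.441, adjusted p 0.0375), and *Fras1*, of epithelial basement membranes, was lower (-2.66, SE 0.723, adjusted p 0.0332, all by edgeR), against 5.88% of all genes. The *Hspg2* call was lost without *KT* library 3 or 4 (adjusted p 0.0563 and 0.0531) and with effective length offsets (0.0993). Those of *Fras1* and *Nid1* were lost without *KT* library 1 (0.21 and 0.129), 3 (0.0542 and 0.118) or 4 (0.0779 and 0.109), with effective length offsets (0.23 and 0.0738), and without non-restored library 2 and restored libraries 1 and 6 (0.0619 and 0.0589). *Fras1* was also lost with no filter (0.086), sex as a covariate (0.102) or a replicate block (0.0953), and *Nid1* without non-restored library 2, 4, 5 or 10 (0.0519 to 0.0535) or with only the 2 groups compared (0.0741), all by edgeR. Of 14 matrix receptors 12 were tested, and 2 passed in that comparison. *Itgb1*, the integrin β1 chain, was higher (0.56, SE 0.129, adjusted p 0.0111 by edgeR), and *Itga1*, which pairs with it to bind collagens, was lower (-1.56, SE 0.316, adjusted p 0.00491). *Itgb1* was lost without *KT* library 1 (edgeR adjusted p 0.0549) and with effective length offsets (0.0559). *Mmp14*, a membrane protease that cleaves collagen, was the 1 of 8 tested proteases and inhibitors that passed, at 8.05 to 11.8 TPM in *KT* and 24.4 to 74.5 in non-restored libraries, ranges that did not overlap (2.16, SE 0.367, adjusted p 0.00113 by edgeR). *Pcolce*, which speeds the trimming of procollagens, was the 1 of 16 tested collagen-processing genes that passed (1.33, SE 0.367, adjusted p 0.0345 by edgeR), a call lost without any one of the 4 *KT* libraries (adjusted p 0.0709 to 0.108) and with sex as a covariate (0.0619). Among females alone 0 of these 8 companion genes passed between non-restored and *KT* tumors in edgeR (adjusted p 0.0592 to 0.586). Of 9 tested elastic fiber genes 0 passed in edgeR, with 4 at an unadjusted p under 0.05, against 20.8% of all genes. On restoration 0 of the tested receptors, proteases, collagen-processing and elastic fiber genes passed in edgeR, with 4 of 12, 2 of 8, 1 of 16 and 0 of 9 at an unadjusted p under 0.05, against 15.1% of all genes.

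In *Trp53*-deficient tumors restoration moved no member past the threshold. Of 34 members tested 0 passed in edgeR, as did 0 of all 12518 genes (0.0%), 2 members (5.88%) had an unadjusted p under 0.05 against 5.97% of genes, and DESeq2 called 1, *Col4a5*, against 0.31% of genes with an adjusted p. *Col4a5* was 5.21, 8.59, 5.22 and 5.31 TPM in the non-restored animals and 13.7, 10.1, 10.8 and 13.5 in the restored ones. As means per animal the 2 groups of 4 did not overlap, and restored animals were the higher. The 2 libraries of non-restored animal 2 held 5.8 and 11.4 TPM, so single libraries did overlap. The log2 fold change was 1.07 (SE 0.207, unadjusted p 0.000442 and adjusted p 0.804 in edgeR, adjusted p 0.0129 in DESeq2). *Lamb3* was 166, 154, 144 and 78.2 TPM without and 284, 151, 169.8 and 157 with restoration, groups that overlapped (0.34, SE 0.151, adjusted p 0.804 by edgeR). *Lamc1*, called lower on restoration in wild-type tumors, was 55.3, 62.5, 62.2 and 56 TPM without and 72.5, 51.3, 58.8 and 69 with restoration (0.09, SE 0.142, adjusted p 0.911 by edgeR). Of the 34 members 28 had positive log2 fold changes, against 6647 of the 12518 genes, with a median of 0.35 against 0.02 over all genes. Positive were 6 of 6 fibrillar collagens, 3 of 3 collagen VI chains and 15 of 17 basement membrane collagens and laminins. Restored library 1 held the highest fibrillar, collagen VI and lysyl oxidase sums of the 4 restored animals (441, 62.1 and 42.5 TPM). Its part in these signs was not tested.

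An interaction term asked whether the response to restoration depended on *Trp53*. Of 39 members 0 passed in edgeR, as did 0 of 13705 genes (0.0%), DESeq2 called 0 (0.0% of genes), and 5 members (12.8%) had an unadjusted p under 0.05, against 3.09% of genes. In all 5 the change in *Trp53*-deficient tumors lay above that in wild-type tumors. They were *Col4a5* (difference of log2 fold changes 1.35, SE 0.359), *Lamc1* (0.46, SE 0.15), *Lamb2* (0.53, SE 0.215), *Loxl3* (2.45, SE 0.998) and *Col4a6* (1.98, SE 0.834), and the adjusted p was 1 for each in edgeR.

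Among non-restored tumors *Trp53*-deficient animals were compared with wild-type libraries, and 1 of 39 members passed, against 0.598% of genes (0.226% lower), with 7 (17.9%) at an unadjusted p under 0.05 against 17.7%. DESeq2 called 3 (*Col4a5*, *Col4a6* and *Lamb1*), against 3.33% of genes with an adjusted p. *Col4a5* was lower in the deficient animals (log2 fold change -1.45, SE 0.264, edgeR adjusted p 0.00859). Non-restored library 8, at 6.28 TPM, was the only wild-type library below the highest deficient animal (8.59 TPM). Without *Trp53*-deficient animal 1, which gave 3 libraries, the difference was -1.40 and the call was lost (edgeR adjusted p 0.0543). *Col4a6*, *Col4a4* and *Col4a3* had differences of -1.85 (SE 0.614, adjusted p 0.132), -1.62 (SE 0.694, adjusted p 0.234) and -1.64 (SE 0.783, adjusted p 0.278) by edgeR. *Col4a3* was 13.4, 30.8, 1.45 and 3.56 TPM in the deficient animals, within the wild-type range except for animal 3. The summed level of 10 alveolar type I markers was 1166, 1389, 822 and 677 TPM in these animals and 465 to 1934 in wild-type non-restored libraries, and the epithelial sums also differed, as given above. Their part in the collagen IV values was not tested. *Lamb1* (1.67, SE 0.481, adjusted p 0.0954) and *Col8a1* (1.54, SE 0.52, adjusted p 0.141) were the 2 members with a positive difference and an unadjusted p under 0.05 by edgeR.

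Among restored tumors 0 of 39 members passed between *Trp53*-deficient and wild-type tumors in edgeR, against 0.372% of genes (0.182% higher and 0.19% lower), whereas DESeq2 called 3 (*Lamb1*, *Lamb2* and *Loxl3*), against 1.58%. At an unadjusted p under 0.05 there were 14 (35.9%), all with positive log2 fold changes, against 15.5% of genes. *Loxl3* was 6.55, 2.42, 2.7 and 1.02 TPM in the deficient animals, all above the 0 to 0.87 TPM of wild-type restored libraries (3.08, SE 0.725, adjusted p 0.058 by edgeR). In CPM the groups overlapped, at 0.223 to 10.6 in the deficient animals and 0 to 1.2 in wild-type restored libraries. The effective length of *Loxl3* was 277 to 2747 bases in the former and 1619 to 3909 in the latter. *Lamb2* was 13.1, 22.8, 20.9 and 21.2 TPM, against 7.1 to 15.7 (0.62, SE 0.154, adjusted p 0.0844 by edgeR), so that 3 of the 4 animals lay above every wild-type library, and it passed without restored *Trp53*-deficient library 1 (edgeR adjusted p 0.00582). *Lamb1* was 23.5, 9.17, 15 and 0.91 TPM, against 2.86 to 5.82 (1.86, SE 0.522, adjusted p 0.11 by edgeR). Both *Loxl3* and *Lamb1* passed without restored *Trp53*-deficient library 4 (edgeR adjusted p 0.0116 and 0.0131). Of 7 tested fibrillar collagens 4 had an unadjusted p under 0.05, with *Col3a1* at 239.8, 35.2, 4.41 and 0 TPM in the deficient animals and 0.61 to 20.9 in wild-type libraries (2.6, SE 1.04, adjusted p 0.251 by edgeR). Without restored *Trp53*-deficient library 1, which held the highest fibroblast sum, the difference of *Col3a1* was 0.59 (edgeR adjusted p 0.804). Of 9 tested elastic fiber genes *Ltbp1*, which holds TGF-β in the matrix, passed (2.55, SE 0.505, adjusted p 0.0154 by edgeR), a call lost without restored *Trp53*-deficient library 1 (adjusted p 0.0753) or 3 (0.0858). Of the other 4 companion lists 0 genes passed in edgeR, with 2 of 18, 5 of 11, 4 of 13 and 2 of 8 at an unadjusted p under 0.05, against 15.5% of all genes.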

How the data were processed

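The authors aligned reads with STAR (2.6.1d) to mm10 and quantified genes with RSEM (1.2.30). They deposited, per library, expected counts, which need not be whole, TPM values and effective lengths in bases. Their normalized counts and their own comparison tables (DESeq2 log2 fold changes and p-values) were not used, and 0 sample columns were left over. Expected counts were rounded. The 7 *Trp53*-deficient non-restored libraries were summed to 4 animals, giving 29 units. Whether some *Trp53* wild-type libraries share an animal was not settled, so p-values measure the spread between libraries.

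Counts were filtered with filterByExpr, scaled by TMM and tested with edgeR's quasi-likelihood F test (edgeR 4.0.16, limma 3.58.1, R 4.3.3), with Benjamini-Hochberg adjustment over all genes and a threshold of 0.05. A single fit held the 21 libraries with wild-type *Trp53* in 3 groups, another the 8 *Trp53*-deficient animals in 2 groups, and the last held restored and non-restored units of both backgrounds together for the interaction, which gave 7 comparisons. CPM used TMM-scaled totals over 32 libraries. Alternatives were DESeq2 (1.42.0), other size factors and filters, effective length offsets, sex, treatment arm, other sets of samples, a replicate block and leaving out each library or animal. Omission of non-restored libraries 4 and 8, or of those with immune sums over 100 TPM, was chosen after seeing the data. Code was tested on simulated data. Tables and plots used Python 3.11.15, pandas 2.3.3, numpy 2.4.6 and matplotlib 3.10.9. Coordinates are GENCODE M21 (GRCm38) and promoters RefSeq (GRCm38.p6).

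The members and lists were chosen with earlier results of these data known. Named with values were members called in any comparison, those among the 10 with the highest mean TPM, the collagen IV pairs, *Lama3*, *Lamb3*, lysyl oxidases, *Col1a1*, *Col1a2* and *Col3a1*, and up to 3 called genes per companion list and comparison. A member that this rule names is not reported here. *Col6a1*, *Col6a2*, *Col6a3*, *Lamb1*, *Col8a1*, *Col12a1*, *Col15a1*, *Lama2*, *Lama4* and *Nid1* were named after their values were seen. No libraries were duplicates by a chi-square test of their counts. Depth floors (3 counts) cover counting error only.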

Additional observations from a re-analysis of the deposited data

Results flagged for a closer look

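In groups of 4 to 10 units, 85 groups of values were examined for 1 unit standing apart from the rest (Dixon's test), and 9 did. Chance alone flags about 1 in 20 such groups. *Col23a1* was 5.84 TPM in *KT* library 2, against 13.5 to 14.2 in the other *KT* libraries. *Loxl3* was 3.64 TPM in *KT* library 1, against 1.11 to 1.34, 5.47 TPM in non-restored library 5, against 0.15 to 2.68, and 0.87 TPM in restored library 6, against 0 to 0.35. *Col4a5* was 8.59 TPM in *Trp53*-deficient non-restored animal 2, against 5.21 to 5.31. *Lamb3* was 284.1 TPM in restored *Trp53*-deficient library 1, against 151 to 169.8. The fibrillar sum was 90.86 TPM in non-restored library 2, against 5.19 to 48.3, and 441.1 TPM in restored *Trp53*-deficient library 1, against 0.6 to 67.2. The lysyl oxidase sum in that same library was 42.53 TPM, against 3.42 to 8.85. The 2 libraries with high fibrillar sums also held the highest fibroblast marker sums of their groups, 177 and 445 TPM.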

How the results depend on the processing

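Counts of members called moved with the setting. In restored against non-restored tumors (1) the count was 2 with DESeq2, 4 without non-restored libraries 4 and 8, and 0 with no filter, effective length offsets, females only, the tamoxifen arm only, or without non-restored library 2 and restored libraries 1 and 6. In non-restored against *KT* tumors (2) it was 6 with DESeq2, 9 without non-restored libraries 4 and 8, 1 with at least 10 counts in every library or effective length offsets, and 0 with females only. In restored against *KT* tumors (1) it was 0 with no filter, at least 10 counts, effective length offsets, females only, sex as a covariate, only the 2 groups compared, or without non-restored library 2 and restored libraries 1 and 6. In *Trp53*-deficient tumors (0) it was 1 with DESeq2. Between *Trp53* backgrounds it was 3 with DESeq2 and 4 with single libraries without restoration (1), and 3 with DESeq2, 2 with effective length offsets and 1 with all 29 units with restoration (0). Leaving out 1 library or animal gave 1 to 3, 2 to 6 and 0 to 1 in the wild-type comparisons, 0 to 0 in *Trp53*-deficient tumors and in the interaction, and 0 to 4 and 0 to 2 between backgrounds. *Col7a1* reversed between restored backgrounds with effective length offsets (-0.62 against 1.33). The cause was not tested.

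With a replicate block the counts were 0, 6 and 0 in the 3 wild-type comparisons. Deviations of same-numbered libraries correlated at 0.04 to 0.50 between non-restored and restored (5 of 7 pairs over 0.1), -0.03 to 0.13 between *KT* and non-restored, and -0.05 to 0.08 between *KT* and restored libraries, and 2 of 21 libraries correlated best with their own number, so the numbers were not taken to pair the samples. For the 4 comparisons that hold *Trp53*-deficient samples, no paired analysis was possible because their labels carry no replicate numbers.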
